A study of Mus musculus with 4 samples.

Results

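The levels of 10 human genes of the MHC class II pathway were measured in leukocytes of mice with a human immune system, 7 days after spinal cord injury (SCI). The 10 genes were HLA-DRA, HLA-DRB1, HLA-DPA1, HLA-DPB1, HLA-DQB1, HLA-DMA, HLA-DMB, HLA-DOA, CD74 and CIITA, of 33538 human genes in the tables. The list was made by name, for genes of 1 pathway. The genes were read in barcodes with over 50% of their unique molecular identifiers (UMIs) on human genes, and compared between B cells, monocytes, basophils and T cells and between the libraries within each class.

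Host mice of the immunodeficient strain NOD.Cg-Prkdcscid, IL2rgtm1Wjl that carry the transgene Tg(CMV-IL3,CSF2,KITLG)1Eav/MloySzJ were engrafted with human umbilical cord blood stem cells. The transgene makes human interleukin-3, GM-CSF and stem cell factor from a viral promoter active in many tissues, so the human cells of every group developed in the presence of these cytokines. Labelled age was 15 weeks in all groups. The groups were blood of naive mice with no surgery, blood of sham mice after a T9 laminectomy, blood of mice with a T9 SCI, and injured spinal cord of mice with a T9 SCI. The sham and SCI samples were taken on day 7. Cells were sorted for human CD45 from pooled animals and profiled as 1 single-cell library per group (10x Genomics). The naive and sham hosts were male and the SCI pools held both sexes, so that condition, pool, host sex and library cannot be told apart between groups. With 1 library per group there was no replicate and no test was made. Intervals cover counting error only, and a difference between libraries is a difference between those libraries.

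MHC class II molecules display peptides from endosomes to CD4 T cells. Each is a pair of an alpha and a beta chain, HLA-DRA with HLA-DRB1, HLA-DPA1 with HLA-DPB1, and HLA-DQA1 with HLA-DQB1. CD74, the invariant chain, guides new pairs to the endosome and blocks their groove. HLA-DM, made of HLA-DMA and HLA-DMB, removes the last fragment of CD74 and loads peptide, and HLA-DO, which contains HLA-DOA, restrains HLA-DM. CIITA is the transactivator that switches on the whole set. B cells, monocytes and dendritic cells carry these genes constitutively, and human T cells can express them when activated.

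After filters 6332 cells from naive blood, 4662 from sham blood, 5941 from SCI blood and 118 from SCI cord remained, with a median of 3699.5, 5234, 4657 and 9331 UMIs per cell. The 4 tables held between 4206461 and 36487994 UMIs in all. No 2 libraries shared more than 10 cell barcodes. Classes were named from marker genes after clustering without any class II gene, CD74 or CIITA, so the levels of the 10 genes by class were not built in. The monocyte-like cells carried LYZ in 98% to 100% of cells of each library and CD14 in 48.5% to 77.8%. CD1C, a marker of conventional dendritic cells, was found in 12.7% of the naive blood, 21.2% of the sham blood and 50% of the 18 SCI blood cells of that class, and its part in the values below was not tested. The Treg-like cells carried FOXP3 in 31.4% to 40.8% of cells in blood. No cluster could be named NK-like at the clustering reported here. Activated T-like cells are a range on a score and not a cell type. They are the T-like cells outside the Treg-like and cycling clusters with UMIs of at least 2 of 8 activation genes after each cell was thinned to 1000 UMIs. They numbered 99, 91 and 56 in naive, sham and SCI blood, and 577, 502 and 578 cells with 1 such gene lay just under the limit.

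Levels are given as UMIs per 1000000 human UMIs of the class in a library (CPM), with ribosomal and mitochondrial genes left out of the total. A ratio was called past the fold when it was over 1.5-fold among genes with at least 20 UMIs over the 2 sums compared. Because only 3′ ends were counted and capture differs between genes, levels are compared between cells for a gene and not between genes.

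B-like and monocyte-like cells held most of the class II message. HLA-DRA stood at 6362 CPM (95% Poisson interval 6280 to 6445, 1274 cells) in naive blood, 6659 (6556 to 6764, 570 cells) in sham blood and 6403 (6318 to 6489, 943 cells) in SCI blood in B-like cells. In monocyte-like cells it was 7496 CPM (7307 to 7688, 142 cells), 9128 (8944 to 9316, 99 cells) and 9419 (8970 to 9885, 18 cells). Other T-like cells, those that were neither Treg-like, cycling nor activated, had 143, 99.0 and 78.1 CPM of HLA-DRA. These 3 classes did not overlap, and monocyte-like cells were highest. All 10 genes were past the fold and higher in B-like than in other T-like cells in naive, sham and SCI blood, while 17.7%, 19.5% and 18.5% of all genes tested were. Their median log2 ratio was 4.19, 4.35 and 4.66, against -0.04, -0.02 and -0.04 over all genes. In monocyte-like cells the 10 genes were again all higher, where 18.1%, 18.4% and 25.2% of genes were, with a median log2 ratio of 3.61, 4.50 and 4.53.

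**Figure D1:**
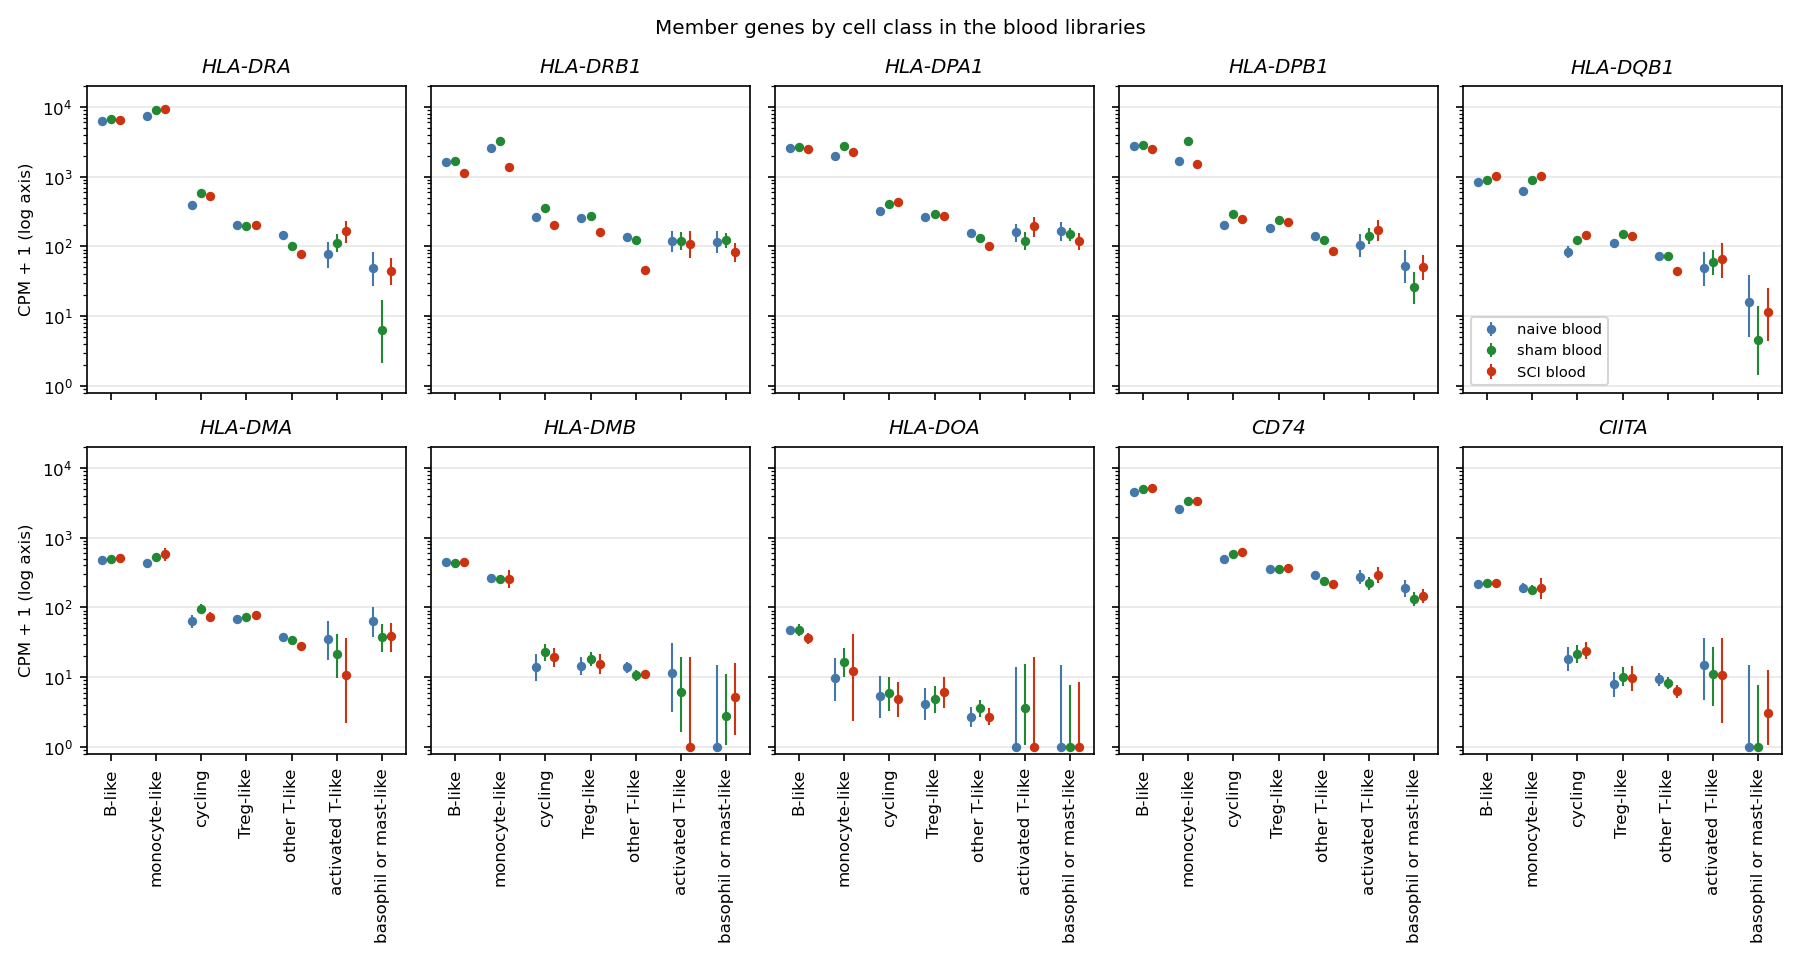
Level of each gene in each cell class of the blood libraries, as CPM plus 1 on a log axis, with 1 point per library and exact 95% Poisson intervals (counting error only). HLA-DRA lay at 6362 CPM or above in every B-like and monocyte-like point and at 582 CPM or under in the 5 other classes drawn (plasma-like cells and the unnamed cluster are not drawn), and HLA-DOA and CIITA were at or near 0 in basophil or mast-like cells.

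The order of B-like and monocyte-like cells differed from gene to gene. CD74 was 4588, 4956 and 5198 CPM in B-like cells of naive, sham and SCI blood and 2571, 3322 and 3360 CPM in monocyte-like cells, so the B-like values lay above all monocyte-like ones, the reverse of HLA-DRA. HLA-DMB, the beta chain of the peptide-loading factor, was 444, 434 and 453 CPM in B-like and 261, 257 and 257 CPM in monocyte-like cells. Its partner HLA-DMA overlapped between the classes, at 481, 497 and 504 CPM against 430.4, 532 and 576 CPM. HLA-DOA, whose product holds HLA-DM back, was 45.7, 46.4 and 35.2 CPM in B-like cells and 8.78, 15.7 and 11.4 CPM in monocyte-like cells, the last from 2 UMIs. The ratio of HLA-DMA plus HLA-DMB to HLA-DOA UMIs was 20.2, 20.1 and 27.2 in B-like cells. CIITA was close in both classes, at 213, 220.4 and 223 CPM in B-like and 187, 178 and 188 CPM in monocyte-like cells. The CD74 UMIs per HLA-DRA UMI were 0.721, 0.744 and 0.812 in B-like and 0.343, 0.364 and 0.357 in monocyte-like cells, and they did not overlap.

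B-like cells fell into 2 clusters. The larger was led by TCL1A and MS4A1, and the smaller by TNFRSF13B, a receptor of memory and activated B cells, with 259, 13 and 43 cells in naive, sham and SCI blood and none in cord. The smaller cluster had less HLA-DRA in each blood library, at 5098, 5701 and 4621 CPM against 6901, 6698 and 6525 CPM in the larger. HLA-DMB was 274, 270.4 and 308 CPM against 516, 441 and 463 CPM, and CIITA was 169, 184 and 135 CPM against 232, 222 and 229 CPM. Of the smaller cluster's cells 31.7%, 15.4% and 60.5% were marked as likely doublets, and their part in these values was not tested. In the larger cluster alone, as in all B-like cells, none of the 10 genes was past the fold between blood libraries, and HLA-DRB1 was 1716, 1677 and 1168 CPM. The share of all genes past the fold was not counted in the larger cluster alone.

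Plasma-like cells, the antibody-secreting end of the B lineage, were nearly all from naive blood (392 cells, against 3 each in sham and SCI blood and none in cord). All 10 genes were lower there than in B-like cells of the same library, where 52.5% of genes tested were lower past the fold. The median log2 ratio was -4.63, against -0.65 over all genes. CIITA was lower by the most, at 2.93 CPM from 13 UMIs against 213 CPM (log2 ratio -6.13, interval -7.10 to -5.40). HLA-DRA had 156 CPM against 6362 CPM. PRDM1, which encodes the repressor of CIITA in the plasma cell program, was 135 CPM in plasma-like and 4.16 CPM in B-like cells. CD74 was 249 CPM, within the 217 to 291 CPM of other T-like cells in the blood libraries.

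Among T-like cells the class II genes were uneven. Shares of cells with a UMI are given after thinning to 1000 UMIs, beside the share in mouse barcodes (over 95% mouse UMIs, not thinned), in which a human UMI comes from free RNA, doublets or misplaced reads. HLA-DRA was found in 18.7%, 15.4% and 16.7% of cytotoxic T-like cells of naive, sham and SCI blood, and before thinning in 43.8%, 47.9% and 40.2%. In CD8 T-like cells, led by GZMK and CD8B, it was found in 1.36%, 0.804% and 0.415% of cells, and in naive T-like cells in 0 of 176 (exact upper bound 2.07%), 1 of 125 and 1 of 586. The mouse barcodes had 0.868%, 2.31% and 1.74%, at a median depth of 2068.5, 2048 and 1820 UMIs of both species. Thinning lowers the share in cells and not in mouse barcodes, so the thinned shares cannot be set against them as a test of background. Before thinning HLA-DRA was found in 5%, 3.38% and 2.97% of CD8 and in 2.27%, 4.8% and 1.54% of naive T-like cells. These unthinned shares lay within a few percent of the mouse barcodes and, save in naive T-like cells of SCI blood, above them. The 2 CD4 T-like clusters lay between, at 5.22% to 6.65% in the larger and 4.75% to 7.53% in the smaller. HLA-DPA1, the alpha chain of HLA-DP, had the same order, with 28.1%, 19.2% and 19.6% in cytotoxic and 0.606%, 0.965% and 0.622% in CD8 T-like cells.

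Levels of HLA-DRA gave the same order. The cytotoxic T-like cells had 389.7, 294 and 303 CPM of HLA-DRA and the larger CD4 cluster 118, 87.1 and 93.0 CPM. HLA-DPB1 was 387, 311 and 286 CPM in cytotoxic against 119, 139 and 118 CPM in the larger CD4 cells. HLA-DMA was 124, 85.0 and 72.0 CPM against 18.6, 19.0 and 16.4 CPM. CIITA, from 19 to 38 UMIs in these clusters and libraries, was 20.2, 14.6 and 15.0 CPM in cytotoxic and 8.23, 9.04 and 8.92 CPM in the larger CD4 cells. The cytotoxic cells thus lay above the larger CD4 cells in all 3 blood libraries for these genes, while HLA-DQB1 was much closer, at 113, 133 and 114 CPM against 106, 106 and 84.1 CPM. CD8 T-like cells did not lie under the larger CD4 cells for every gene. Over the blood libraries they had 18.8 to 26.7 CPM of HLA-DMA, against 16.4 to 19.0 CPM. HLA-DMB was 11.1 to 20.1 against 4.32 to 6.66 CPM, and HLA-DOA 3.13 to 5.98 against 0.576 to 1.19 CPM. The CD74 ranges overlapped, and the other genes were lower in CD8 T-like cells. Marked doublets were 10.8%, 5.48% and 10.0% of cytotoxic T-like cells left in and 2.10%, 2.21% and 4.50% of the larger CD4 cluster. CD79A, a B cell marker, was found in 7.33%, 17.5% and 7.76% of the cytotoxic cells. Their part in these levels was not tested.

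CD74 differed from HLA-DRA in CD8 and naive T-like cells. CD74 was found in 12.1%, 11.4% and 11.1% of CD8 T-like cells and in 7.39%, 9.60% and 8.87% of naive T-like cells, and before thinning in 32.9%, 45.0% and 35.6% and in 23.9%, 38.4% and 29.0%. The mouse barcodes had CD74 in 1.81%, 1.54% and 1.33%, under the thinned and the unthinned shares of both clusters. The CD8 T-like cells had 30.1, 11.9 and 11.3 CPM of HLA-DRA and 189.9, 199 and 166 CPM of CD74. The number of CD74 UMIs per HLA-DRA UMI was 6.31, 16.7 and 14.7 there, against 0.721 to 0.812 in B-like cells.

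**Figure D2:**
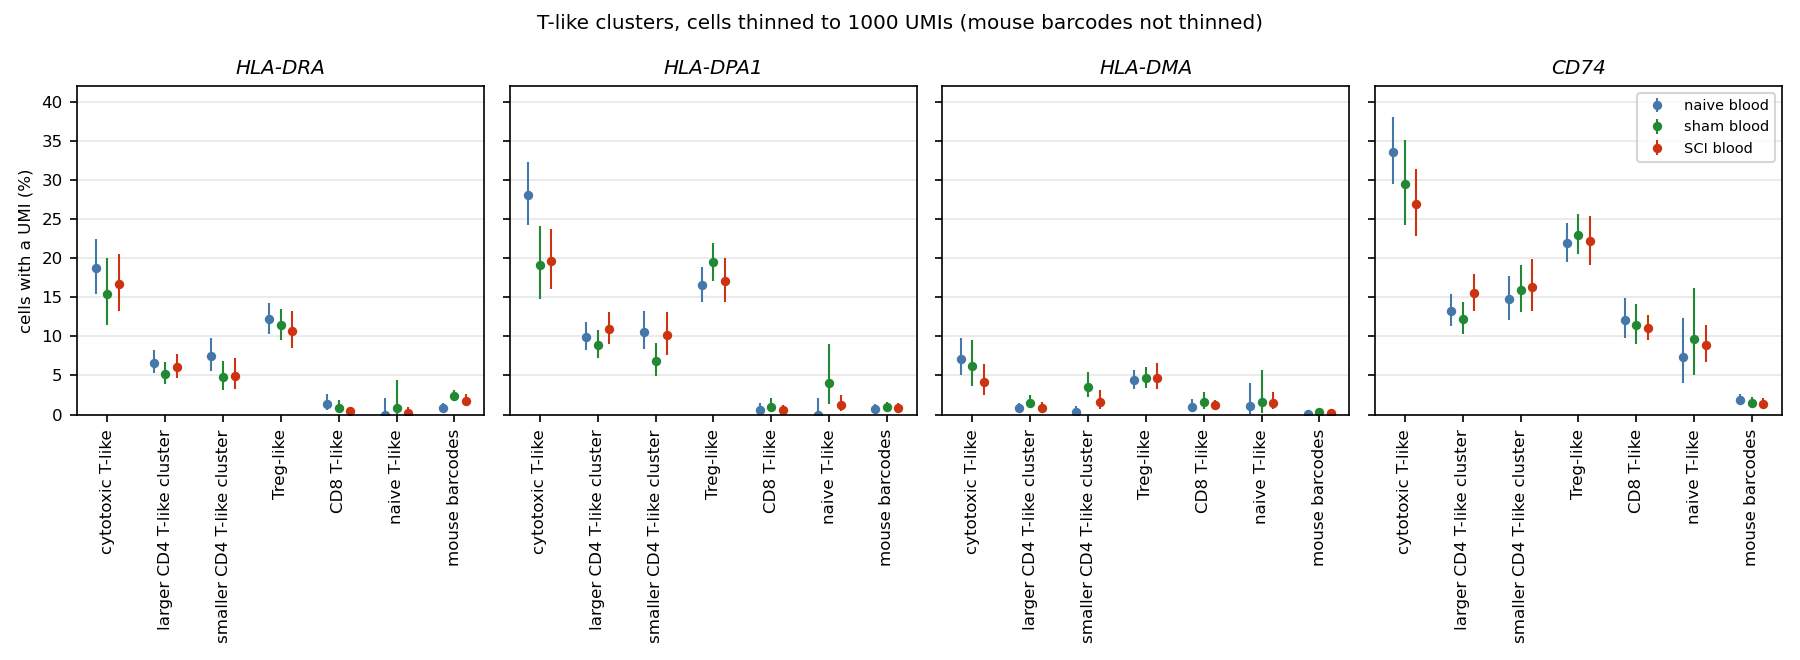
Share of cells with at least 1 UMI of 4 genes in 6 T-like clusters (thinned to 1000 UMIs) and in mouse barcodes (not thinned) of the blood libraries, with exact 95% binomial intervals. HLA-DRA and HLA-DPA1 in CD8 and naive T-like cells lay at a few percent or less after thinning, whereas CD74 lay between 7.39% and 12.1% there.

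Treg-like cells carried more of most of the 10 genes than other T-like cells. Of the 10 genes, 5 in naive, 7 in sham and 9 in SCI blood were higher past the fold, where 8.19%, 8.3% and 8.84% of all genes were, and none was lower. HLA-DRA was 202, 194 and 202 CPM in Treg-like cells, flat across libraries, while it was 143, 99.0 and 78.1 CPM in other T-like cells. Not every gene was flat in Treg-like cells. HLA-DQB1 was 110, 150 and 141 CPM there and 71.5, 71.9 and 43.9 CPM in other T-like cells. Other T-like cells are a mix. CD8 T-like cells were 21.7%, 24.5% and 37.3% of it in naive, sham and SCI blood, and naive T-like cells 5.82%, 4.93% and 15.1%. The cytotoxic T-like cluster alone lay above Treg-like cells for HLA-DRA, at 294 to 390 CPM. It did so too for HLA-DPB1, HLA-DMB, CD74 and CIITA, while ranges overlapped for the other genes. The part of each side of the comparison, and of this mix, in these counts was not tested. HLA-DRB1 was higher in Treg-like cells with log2 ratios of 0.94 (interval 0.80 to 1.08), 1.14 (1.02 to 1.26) and 1.85 (1.66 to 2.04). CIITA itself had few UMIs, 20, 34 and 20, and log2 ratios of -0.22, 0.35 and 0.73.

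Cycling cells, led by MKI67 and TOP2A, had 7, 10 and 10 of the 10 genes higher than other T-like cells, against 15%, 16.7% and 16.9% of all genes. HLA-DRA was 391, 582 and 523 CPM in this cluster, between Treg-like and B-like cells. Cells of different lineages were not separated within this cluster.

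Basophil or mast-like cells showed little HLA-DRA. It was 48.4 CPM in naive, 5.43 CPM in sham and 43.5 CPM in SCI blood, from 13, 3 and 21 UMIs in 7, 3 and 7 cells. Without the cell with most UMIs in each library the values were 22.7, 3.64 and 18.9 CPM. HLA-DOA had no UMI in any of the 4 libraries, CIITA had 1 UMI in SCI blood and none in the others, and HLA-DMB had 0, 1 and 2 UMIs in blood. HLA-DRB1 and HLA-DPA1 were still present, at 116, 123 and 82.8 CPM and at 164, 148 and 118 CPM. For HLA-DPA1 this was close to the other T-like cells, with log2 ratios of 0.08 (interval -0.40 to 0.50), 0.17 (-0.18 to 0.48) and 0.26 (-0.16 to 0.63). Of the 10 genes, 6 of 9 tested in naive, 7 of 10 in sham and 6 of 10 in SCI blood were lower past the fold than in other T-like cells, where 32.2%, 35.4% and 34.7% of all genes were. HLA-DMA in naive blood (0.83, interval -0.01 to 1.49) and HLA-DRB1 in SCI blood (0.89, 0.37 to 1.34) were higher past the fold. These counts include 2, 2 and 1 genes with no UMI in the basophil or mast-like cells, whose ratio rests on the 0.5 counts added. HLA-DRA, HLA-DPB1 and HLA-DQB1 were lower with an interval that excluded 0 in all 3 blood libraries. With a coarser clustering, or with all marked doublets removed, no cluster was left unnamed. The basophil or mast-like class was then led by CLC and held 27 cord cells instead of 15. The log2 ratio of HLA-DRA in SCI blood turned to 1.43 and 1.14. The unnamed cluster of the clustering reported here, also led by CLC, held 6 SCI blood and 12 cord cells. Single cells were not followed between settings.

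Between blood libraries the B-like cells had the fewest of the 10 genes past the fold. None of the 10 genes was past the fold in sham over naive, SCI over naive or SCI over sham blood, where 10.9%, 11.4% and 10.1% of all genes were. With only 10 genes, such a count lay near the share of all genes. The 3 comparisons share libraries with each other. Log2 ratios ran from -0.03 to 0.11 in sham over naive, from -0.50 to 0.26 in SCI over naive and from -0.55 to 0.19 in SCI over sham blood. The lowest value in both SCI comparisons was that of HLA-DRB1, at 1612, 1674 and 1143 CPM in naive, sham and SCI blood. CIITA differed by 0.06 (interval -0.08 to 0.21) and 0.02 (-0.15 to 0.18) in the SCI comparisons.

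In monocyte-like cells 2 of 10, 2 of 9 and 2 of 9 genes were past the fold in sham over naive, SCI over naive and SCI over sham blood, where 19%, 32.1% and 31.9% of all genes were, so their share lay near that of all genes or under it. HLA-DPB1 was 1657, 3214 and 1535 CPM, and higher in the sham library than in the other two. Its log2 ratio was 0.96 (interval 0.86 to 1.05) in sham over naive and -1.06 (-1.25 to -0.89) in SCI over sham blood. HLA-DRB1 was 2593, 3203 and 1369 CPM, with log2 ratios of -0.92 (-1.12 to -0.73) in SCI over naive and -1.22 (-1.42 to -1.04) in SCI over sham blood. HLA-DQB1, the beta chain of HLA-DQ, was higher in SCI over naive blood (0.71, interval 0.46 to 0.96), at 624, 902 and 1021 CPM. The SCI blood values rest on 18 cells. The call of HLA-DPB1 was lost with a coarser clustering (0.07 in sham over naive and -0.03 in SCI over sham blood) and with all marked doublets removed (0.08 and -0.12). HLA-DRB1 in SCI over naive blood came to -0.12 as UMIs per cell with no scaling for depth, and HLA-DQB1 to 0.35 after thinning.

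**Figure D3:**
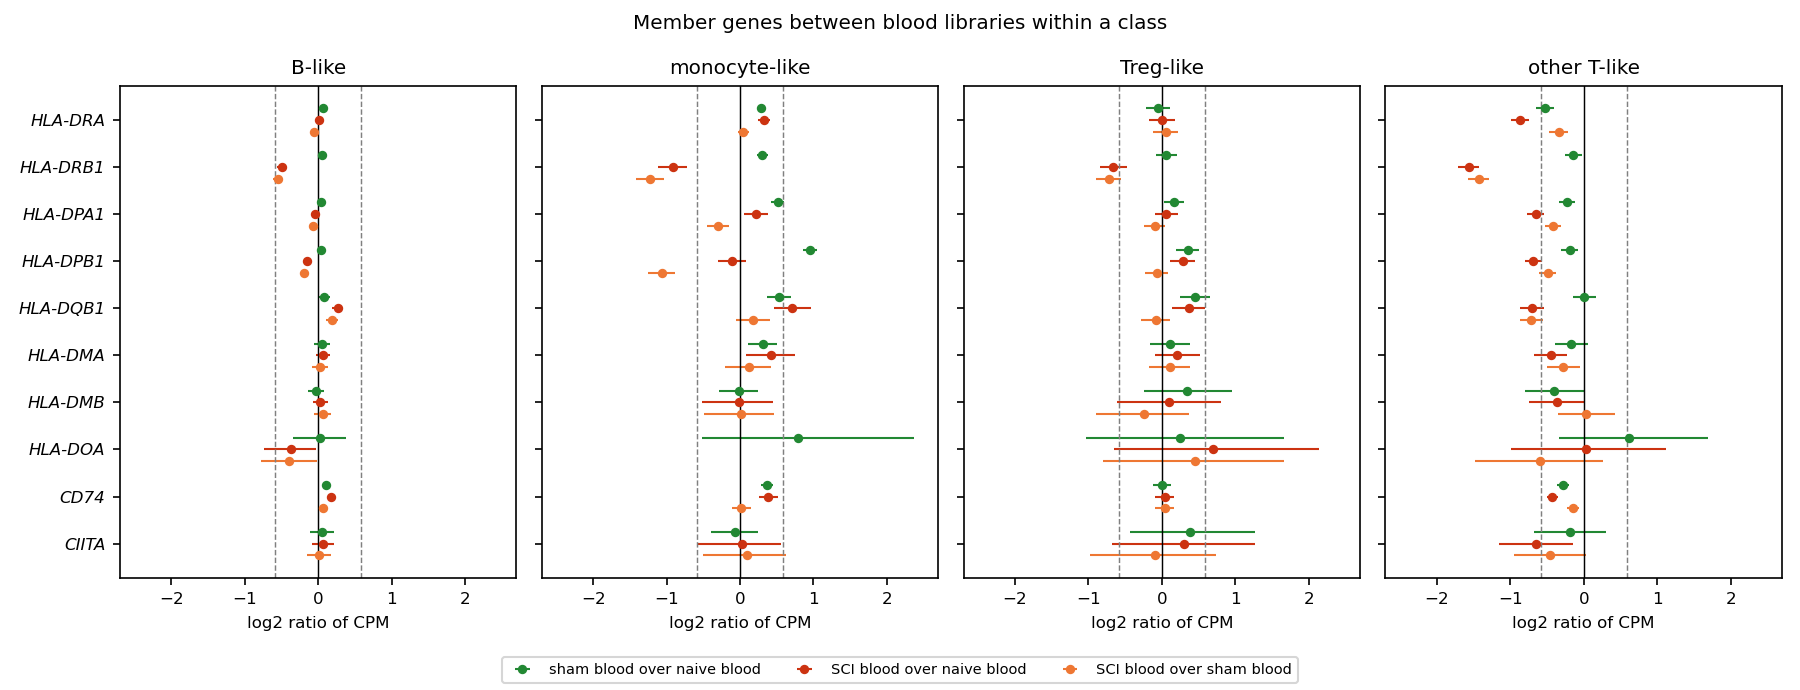
Log2 ratio of CPM between blood libraries for each gene in 4 cell classes, with 95% intervals for counting error and dashed lines at 1.5-fold; genes under 20 UMIs or with no UMI on a side are not drawn. HLA-DRB1 is the gene farthest to the left in both SCI comparisons in B-like, monocyte-like, Treg-like and other T-like cells.

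In Treg-like cells 0, 2 and 1 of 10 genes were past the fold, where 8.2%, 10.1% and 9.98% of all genes were. HLA-DRB1 was 257, 268 and 163 CPM there, with log2 ratios of -0.66 (interval -0.84 to -0.48) in SCI over naive and -0.72 (-0.90 to -0.55) in SCI over sham blood. HLA-DRA in the same cells had log2 ratios with intervals of -0.18 to 0.18 and -0.12 to 0.22. The HLA-DRB1 ratio in SCI over naive blood was -0.42 after thinning and -0.32 as UMIs per cell, no longer past the fold. In basophil or mast-like cells 2 of 5, 1 of 6 and 2 of 6 genes tested were past the fold, where 22.4%, 22.8% and 20% of all genes were, and the one with an interval off 0 was HLA-DRA in SCI over sham blood (2.81, interval 1.26 to 5.39, 21 against 3 UMIs). Of the 21 UMIs 1 cell held 12, and only 7 of 132 SCI blood cells had any, which the interval does not cover. In activated T-like cells 0, 2 and 1 of 6 genes tested were past the fold, where 19.7%, 21.6% and 22.3% of all genes were.

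Relative to HLA-DRA, its partner in the HLA-DR pair, HLA-DRB1 was lower in the SCI blood library than in the naive and sham blood libraries in each of the 7 classes or clusters plotted. B-like cells had 0.253 HLA-DRB1 UMIs per HLA-DRA UMI in naive (interval 0.246 to 0.261), 0.251 in sham (0.243 to 0.260) and 0.179 in SCI blood (0.172 to 0.185). Monocyte-like cells had 0.346 (0.329 to 0.364), 0.351 (0.337 to 0.365) and 0.145 (0.126 to 0.167). Treg-like cells had 1.27, 1.38 and 0.807. Single cells were also compared. Among B-like cells with at least 20 HLA-DRA UMIs the median ratio was 0.224 over 432 naive, 0.233 over 443 sham and 0.148 over 526 SCI blood cells. In SCI cord the ratio was 0.256 (0.208 to 0.313) in the 8 B-like cells and 0.388 (0.362 to 0.416) in the 9 monocyte-like cells, so the cord values of these classes lay nearer to naive and sham blood than to SCI blood. In other T-like cells the cord value was 0.580, next to the 0.578 of SCI blood. Its interval of 0.354 to 0.935, from 29 HLA-DRB1 and 50 HLA-DRA UMIs, reached close to the 0.937 of naive blood. A single cell held 20 of the 50 HLA-DRA UMIs.

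**Figure D4:**
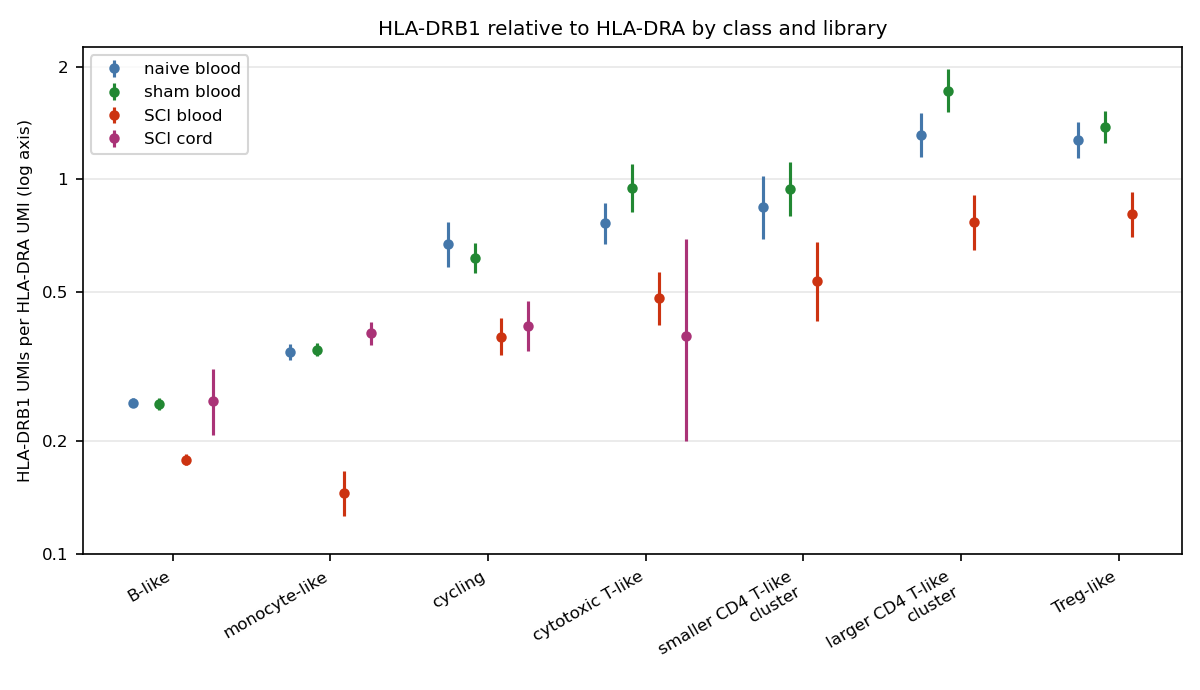
HLA-DRB1 UMIs per HLA-DRA UMI (log axis) by class and library with 95% intervals for counting error. In each of the 7 classes the SCI blood point lies under the naive and sham blood points, and the SCI cord points of B-like and monocyte-like cells lie at 0.256 and 0.388.

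HLA-DQA1 encodes the alpha chain of HLA-DQ and was 1 of 30 other pathway genes looked at. In B-like cells HLA-DQA1 was 1389, 1514 and 776 CPM in naive, sham and SCI blood and 1157 CPM (interval 944 to 1403) in the 8 cord cells. Its log2 ratio was -0.84 in SCI over naive and -0.96 in SCI over sham blood. In monocyte-like cells HLA-DQA1 was 792, 973 and 416 CPM. HLA-DQB1 had the opposite order in B-like cells, at 850.2, 896 and 1021 CPM. As background, HLA-DRB1, HLA-DQA1 and HLA-DQB1 vary in sequence between people and have close relatives among the class II genes, while HLA-DRA hardly varies. Reads were counted against 1 reference, so how reads of differing copies were assigned is uncertain for these genes. Donors were not examined here, and their part in these values was not tested.

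In other T-like cells 1, 6 and 3 of 10 genes were past the fold in sham over naive, SCI over naive and SCI over sham blood, where 8.31%, 12.6% and 10.2% of all genes were. All 6 in SCI over naive blood were lower, and their log2 ratios were -0.87 for HLA-DRA, -1.57 for HLA-DRB1, -0.66 for HLA-DPA1, -0.68 for HLA-DPB1, -0.70 for HLA-DQB1 and -0.65 for CIITA. The make-up of this class moved with them. CD8 T-like cells were 21.7% of it in naive, 24.5% in sham and 37.3% in SCI blood, and naive T-like cells 5.82%, 4.93% and 15.1%, the clusters with the lowest HLA-DRA. With each cluster given its naive blood weight, 1 of the 10 genes was past the fold in SCI over naive blood, HLA-DRB1 at -1.09, and HLA-DRA came to -0.40 in SCI over naive and 0.00 in SCI over sham blood. HLA-DRB1 was lower in SCI over naive blood within the larger CD4 (-1.11), smaller CD4 (-0.89), cytotoxic (-1.02) and CD8 T-like cluster (-1.63). Other genes moved within clusters too. In SCI over naive blood 6 of 8 genes tested were lower past the fold within CD8 T-like cells. The 8 had a median log2 ratio of -0.87, against -0.06 over all genes. HLA-DRA was at -1.41 there (interval -2.02 to -0.80), from 48 UMIs in each library over 660 and 1447 cells. Its level was 30.1, 11.95 and 11.3 CPM in naive, sham and SCI blood, so the sham value lay near the SCI value. The unthinned shares of these cells with an HLA-DRA UMI lay within a few percent of the mouse barcodes. Marked doublets left in were 4.85%, 3.38% and 1.94% of CD8 T-like cells in naive, sham and SCI blood. The part of doublets and free RNA in these values was not tested. In SCI over sham blood 4 of 9 genes tested were lower past the fold in these cells. In cytotoxic T-like cells 3 of 9 were lower past the fold in SCI over naive blood. These were HLA-DMA at -0.78 (-1.14 to -0.43) and HLA-DMB at -0.90 (-1.61 to -0.24), beside HLA-DRB1. The 9 had a median of -0.44, against -0.06 over all genes. The share of all genes past the fold was not counted within single T-like clusters or with the weights held.

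Activated T-like cells did not carry more class II message than other T-like cells in every library. In naive blood 2 of 9 genes tested, in sham blood 2 of 10 and in SCI blood 8 of 10 were past the fold, where 32.1%, 30.4% and 37% of all genes were. HLA-DRA was lower in activated cells of naive blood (-0.88, interval -1.59 to -0.31), not past the fold in sham blood (0.20, -0.28 to 0.62) and higher in SCI blood (1.08, 0.51 to 1.56), from 22, 44 and 33 UMIs. In SCI blood HLA-DRB1 (1.30), HLA-DPA1 (0.97) and HLA-DPB1 (1.02) were higher too, and 2 of the 8 were lower, HLA-DMA with 2 UMIs and HLA-DMB with none in the activated cells. The activated cells of SCI blood were 16, 21, 15, 0 and 4 from the larger CD4, smaller CD4, cytotoxic, naive and CD8 T-like clusters, while CD8 and naive T-like cells made up 37.3% and 15.1% of the other T-like cells of that library. The part of this make-up in the ratio was not tested. The naive blood value came to -0.12 after thinning, whereas the SCI blood value was 1.01 to 1.32 under the 14 alternatives run. With a limit of 3 genes 8, 10 and 2 cells were left.

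In SCI cord 118 human cells were kept, and 3 classes had at least 10 cells in cord and blood. In other T-like cells (47 cells) 7 of 10 genes were past the fold and higher than in SCI blood, where 38.2% of all genes were past the fold in either direction. HLA-DRA was 186 CPM in cord and 78.1 CPM in blood (log2 ratio 1.27, interval 0.81 to 1.66), and 1 cord cell held 20 of the 50 UMIs. Without that cell the cord value was 115 CPM and the log2 ratio 0.56, no longer past the fold. The T-like cells of cord, activated ones included, were 13 cytotoxic, 27 CD4, 2 naive and 11 CD8 T-like cells, while CD8 and naive T-like cells were 37.3% and 15.1% and cytotoxic cells 10.9% of the other T-like cells of SCI blood. The 13 cytotoxic cells held 42 HLA-DRA UMIs, at 676 CPM against 303 CPM in SCI blood. The part of this make-up in the ratios was not tested. HLA-DRB1 (1.28, 0.67 to 1.80), HLA-DQB1 (1.55, 0.99 to 2.03) and CD74 (0.75, 0.43 to 1.03) were higher as well. In Treg-like cells (15 cells) 4 of 9 genes were past the fold, where 47.7% of all genes were, with HLA-DRB1 at 1.05 (0.49 to 1.52), HLA-DPB1 at -0.86 (-1.83 to -0.12) and CIITA at 2.24 (0.10 to 3.68) from 4 UMIs in cord. In basophil or mast-like cells (15 cells) 4 of 6 were, where 40% of all genes were, with HLA-DRB1 at 1.28 (0.49 to 2.01) and HLA-DPA1 at 0.77 (0.03 to 1.45).

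Within the cord, 3 of 7 genes tested were higher in Treg-like than in other T-like cells, where 16.1% of all genes were, and 4 of 6 were lower in basophil or mast-like cells, where 39.2% were, 1 of them (HLA-DQB1) with no UMI. The other 2 were higher, HLA-DRB1 at 0.88 (0.06 to 1.70) and HLA-DPA1 at 0.99 (0.15 to 1.82). HLA-DRA had 1 UMI in the 15 basophil or mast-like cells of cord, and HLA-DRB1 had 26. The 9 monocyte-like cells of cord had 16764 CPM of HLA-DRA (interval 16163 to 17382) and 8025 CPM of CD74, above the 7496 to 9419 CPM and 2571 to 3360 CPM of the blood libraries. Among the 9 cells HLA-DRA ran from 10 to 886 UMIs with a median of 188, and without the highest cell the level was 14212 CPM. The class held 21 cord cells when at least 90% human UMIs were asked for, and none when all marked doublets were removed. That filter removed no cord cell, because doublets were not scored in the cord library. The 8 B-like cells had 5359 CPM of HLA-DRA (4888 to 5862), below the 6362 to 6659 CPM of blood. The 6 cycling cells of cord had 4758 CPM of HLA-DRA, of which 1 cell held 526 of 602 UMIs, and 831 CPM without it, with LYZ in 83.3% of the 6. Mouse barcodes of cord had HLA-DRA in 14.3% of 91, above the 0.868% to 2.31% of blood, at a median depth of 26590 UMIs.

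**Figure D5:**
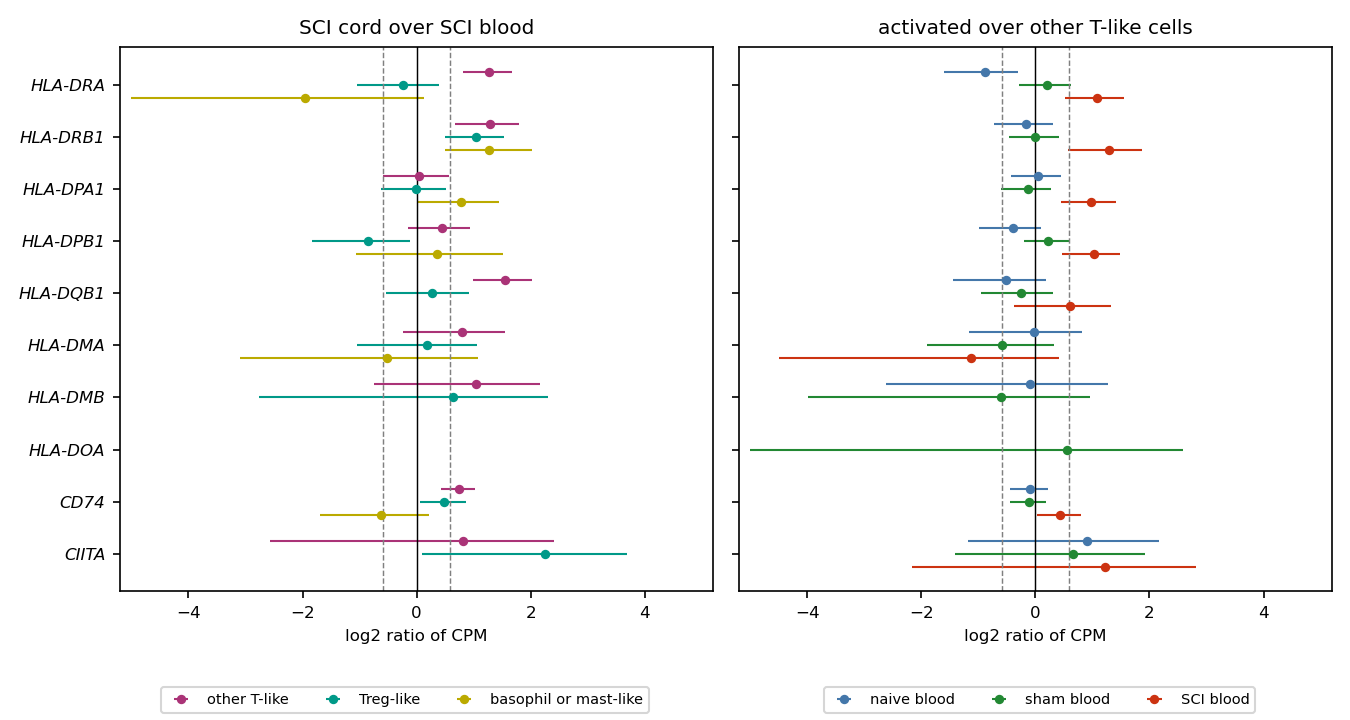
Log2 ratio of CPM with 95% intervals for counting error and dashed lines at 1.5-fold, for SCI cord over SCI blood in 3 classes (left) and for activated over other T-like cells in each blood library (right); intervals that run past the axis are cut there, and genes under 20 UMIs or with no UMI on a side are not drawn. HLA-DRA in other T-like cells is at 1.27 in cord over blood, and HLA-DRA in activated cells is at -0.88, 0.20 and 1.08 in naive, sham and SCI blood.

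Of the 30 other pathway genes, which include the endosomal proteases, the RFX and NFY factors that bind class II promoters with CIITA, and the costimulators, 17, 16 and 18 were higher in B-like than in other T-like cells of naive, sham and SCI blood and 4, 4 and 3 were lower. Of all genes tested, 17.7%, 19.5% and 18.5% were higher past the fold. IFI30, CTSS, RFX5 and IRF8 were among those higher. CTSL, CTSB, CTSD and PRDM1 were the 4 lower in naive blood. Within B-like cells 29, 29 and 28 of the 30 were tested in sham over naive, SCI over naive and SCI over sham blood. Of these 0, 1 and 1 were higher and 2, 4 and 2 lower past the fold. Of all genes 10.9%, 11.4% and 10.1% were past it in either direction. With so few genes, these counts lay near the share of all genes. LGMN, an endosomal protease, was 85.7, 59.4 and 38.4 CPM and CD86, a costimulator, 51.3, 28.2 and 27.7 CPM. In the larger B-like cluster alone CD86 had the opposite direction, at 16.6, 25.4 and 26.7 CPM, with log2 ratios of 0.61 (interval 0.02 to 1.22) in sham over naive and 0.68 (0.14 to 1.26) in SCI over naive blood. In plasma-like cells of naive blood 20 of the 30 were lower and 4 higher than in B-like cells. Of all genes tested, 52.5% were lower past the fold there.

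The gene whose levels followed the mean of the 10 most closely over 22 class-by-library sums, on a log2(CPM + 10) scale, was CD1C (Pearson r = 0.947). MYO7B, MARCH1, LY86, CD40, LRRK2, SIDT2, MARCKS, IRF8 and BCL11A followed, down to an r of 0.929, among 6538 genes. The 10 genes themselves had values of 0.919 (HLA-DOA) to 0.994 (CD74) with this mean. The sums of a library share its depth and free RNA, and B-like and monocyte-like sums carry most of the spread. The closest pair of the 10 was CD74 with CIITA (0.985) and the least close HLA-DRB1 with HLA-DOA (0.832).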

How the data were processed

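Single-cell RNA-seq counts per gene, deposited by the authors as filtered matrices, were used as whole-number counts (UMIs) of human (GRCh38_) and mouse genes. Per the labels the libraries were 10x Genomics, and the submitters' processing notes name CellRanger 3.1.0. Barcodes with over 50% human UMIs were kept, and cells more than 3 median absolute deviations low in UMIs or genes, or high in mitochondrial or ribosomal share, and marked doublets with over 3000 genes were removed. Doublets were scored in the blood libraries and not in SCI cord, which had 138 human barcodes. Doublets among the cord cells are therefore unknown. Cells were clustered (scanpy 1.11.5, Python 3.11.15; 2000 variable genes without class II genes, CD74 and CIITA, 30 components, 15 neighbours, resolution 0.8) and named from marker genes. Counts were summed per class and library, ratios of CPM had 0.5 counts added, and past the fold meant over 1.5-fold among genes with at least 20 UMIs. Intervals are exact 95% Poisson, binomial or conditional binomial ones. Shares used cells thinned to 1000 UMIs. The genes named are the 10 members, the fixed list of 30 pathway genes and the 10 genes most like the members. Members and lists were chosen with earlier results of these data known. Scripts were tested on simulated data. Alternatives included other doublet filters, clustering resolutions, totals, thinning, minimum counts and marker-based classes. Promoter and protein sequences of these human genes were not analysed here.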

Additional observations from a re-analysis of the deposited data

Results flagged for a closer look

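Genes with opposite directions in 2 classes under the same comparison were noted, and the difference itself was not tested, since there was 1 library per group. HLA-DQB1 in SCI over naive blood had a log2 ratio of 0.71 in monocyte-like cells and -0.70 in other T-like cells. HLA-DRA in SCI over naive blood had a log2 ratio of 1.09 in activated T-like cells and -0.87 in other T-like cells.

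HLA-DRA was also found in a cluster that was left without a name because no marker list fitted it. Its leading genes were CLC, CLU and CD24, and it held 3, 6, 6 and 12 cells in naive, sham, SCI blood and SCI cord. HLA-DRA was 570.3 CPM in sham blood, 3095 CPM in SCI blood and 1868 CPM in SCI cord, and 186 CPM in naive blood from 1 UMI. Without the cell with most UMIs these were 168 CPM in sham blood, 2084 CPM in SCI blood and 1925 CPM in SCI cord, so the sham value rests on 1 cell. In cord each of the 12 cells had at least 3 HLA-DRA UMIs. LYZ, a marker of monocytes, was found in 8.33% of those 12 cells.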

How the results depend on the processing

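No paired analysis was possible because each group is 1 library. By class, 144 of 172 comparisons of a gene were past the fold in the direction counted for that class (lower in basophil or mast-like and plasma-like cells, higher elsewhere), between blood libraries 27 of 153, in cord over blood 15 of 25 and in activated over other T-like cells 12 of 29. In single comparisons the share of all genes was 8.19% to 52.5% by class and 8.2% to 32.1% between blood libraries. It was 38.2% to 47.7% in cord over blood and 30.4% to 37% in activated over other T-like cells. The 27 of 153 lay within its range, the 12 of 29 a little above it, and the counts by class and in cord above it. As UMIs per cell with no scaling for depth, the counts were 64 between libraries and 24 in cord over blood. With no minimum of counts 43 were past the fold between libraries, at resolution 0.4 27 in cord over blood, and with at least 3 of 8 activation genes 3 in activated over other T-like cells. The last 3 counts cover other sets of comparisons than the main ones. With no minimum, genes under 20 UMIs were counted too. At resolution 0.4 the B-like class reached 10 cord cells and so entered cord over blood. With at least 3 of 8 activation genes only sham blood, with 10 cells, reached the limit of 10 cells. The cause of the change as UMIs per cell was not tested. Single genes were followed only where the value reported was past the fold with an interval that excluded 0. Of 2190 such values, 1773 stayed within the counting interval of the value reported, 405 fell outside it in the same direction and 12 reversed. Genes without such a value were not followed, so new calls or reversals among them are not in these counts.

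Reversals were log2 ratios over other T-like cells unless stated. In basophil or mast-like cells with all marked doublets removed they were HLA-DRA in SCI blood (1.14) and, in SCI cord, HLA-DRA (2.27), HLA-DQB1 (0.63) and CD74 (1.19). At resolution 0.4 they were HLA-DRA (1.43) and HLA-DPB1 (0.31) in SCI blood and HLA-DRA (2.29), HLA-DQB1 (0.50) and CD74 (1.12) in SCI cord. The class then held 27 cord cells instead of 15. HLA-DMB in Treg-like cells of sham blood was -0.21 after thinning, HLA-DOA in monocyte-like cells of sham blood -1.39 with classes from marker UMIs, and HLA-DPB1 in Treg-like cells, cord over blood, 0.29 as UMIs per cell. The HLA-DRB1 to HLA-DRA ratio in B-like cells was 0.170 to 0.180 in SCI blood and 0.253 to 0.254 in naive blood under the 8 settings run. The T-like cluster weights, clusters taken singly, the larger B-like cluster, classes of 30 or more cells and leaving out the cell with most HLA-DRA UMIs were added after seeing the data.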
